A study of Mus musculus with 13 samples.

Results

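The nuclear receptor superfamily was followed in mouse bone marrow-derived macrophages that carried or lacked HDAC3 and that received IL-4 or vehicle. The set holds 46 listed receptor genes of 28307 gene names on the array. Its members were all non-control probes whose gene name was on the list, a rule that reads no measured value, although the family was picked with earlier results of these data known. The RNA samples were hybridised to 13 one-colour Agilent arrays, which limits the precision. Marrow came from male C57BL/6 mice of 12 to 16 weeks and was grown for 6 days in 30% L929-conditioned medium, replated and rested overnight. Every group carried Hdac3 alleles with exons 4 to 7 between loxP sites. Control cells had no Cre, and knockout (KO) cells expressed Cre from the lysozyme M promoter, so that the genotype and the presence of Cre cannot be told apart. For 24 hours the cells were then kept in 10 ng/mL IL-4, the cytokine of alternative macrophage activation, or in its vehicle, 0.1% bovine serum albumin (BSA). There were 4 control vehicle arrays (numbers 1 to 4), 3 KO vehicle arrays (5, 6 and 7), 3 KO IL-4 arrays (13, 14 and 15), and 3 control arrays with IL-4 (9, 10 and 12). Whether the arrays of 1 group represent different mice or dishes is not in the labels, and p-values then refer to the spread among these samples alone, part of which may be technical.

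Nuclear receptors are transcription factors that share a zinc-finger DNA-binding domain and a ligand-binding domain. Many of them, among them the PPARs, LXRs, retinoic acid, thyroid hormone and vitamin D receptors, bind DNA as partners of a retinoid X receptor (RXR). Without an activating ligand several of these dimers hold a corepressor complex such as that of NCoR, which contains HDAC3 as its deacetylase, and a ligand exchanges it for coactivators. In macrophages PPARG and the LXRs are known for their control of lipid handling, and IL-4 is a known inducer of Pparg. The comparisons below ask which receptor transcripts were detected, which differed with HDAC3 loss in either treatment, and which responded to IL-4 in either genotype.

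Only Pparg and Rxra passed the test in any comparison. Their annotated promoters are therefore shown, as the 250 bases before each annotated start (RefSeq, GRCm38.p6), written 5′ to 3′ in lower case. Capitals mark AGGTCA on either strand (TGACCT when it lies on the reverse strand), the core repeat that many nuclear receptors bind.
Rxra window 1, chr2:27676951-27677200, + strand: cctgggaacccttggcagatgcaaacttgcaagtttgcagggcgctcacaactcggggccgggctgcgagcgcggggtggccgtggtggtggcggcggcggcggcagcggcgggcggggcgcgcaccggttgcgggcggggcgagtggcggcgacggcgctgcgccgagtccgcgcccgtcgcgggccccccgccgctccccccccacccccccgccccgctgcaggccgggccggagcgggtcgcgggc
Rxra window 2, chr2:27709042-27709291, + strand: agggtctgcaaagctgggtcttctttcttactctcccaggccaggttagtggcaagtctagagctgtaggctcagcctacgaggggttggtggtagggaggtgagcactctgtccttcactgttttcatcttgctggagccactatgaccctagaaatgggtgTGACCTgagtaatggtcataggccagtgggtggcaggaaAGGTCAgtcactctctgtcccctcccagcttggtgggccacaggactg
Pparg window 1, chr6:115360894-115361143, + strand: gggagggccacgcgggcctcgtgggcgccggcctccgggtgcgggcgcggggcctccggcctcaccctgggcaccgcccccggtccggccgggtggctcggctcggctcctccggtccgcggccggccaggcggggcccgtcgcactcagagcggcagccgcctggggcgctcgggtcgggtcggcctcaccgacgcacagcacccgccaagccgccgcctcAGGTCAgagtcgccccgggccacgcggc
Pparg window 2, chr6:115362099-115362348, + strand: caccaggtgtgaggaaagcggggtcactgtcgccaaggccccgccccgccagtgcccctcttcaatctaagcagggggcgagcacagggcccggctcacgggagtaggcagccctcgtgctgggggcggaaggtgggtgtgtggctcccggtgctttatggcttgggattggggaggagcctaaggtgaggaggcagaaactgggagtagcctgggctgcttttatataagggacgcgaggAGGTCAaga
Pparg window 3, chr6:115421816-115422065, + strand: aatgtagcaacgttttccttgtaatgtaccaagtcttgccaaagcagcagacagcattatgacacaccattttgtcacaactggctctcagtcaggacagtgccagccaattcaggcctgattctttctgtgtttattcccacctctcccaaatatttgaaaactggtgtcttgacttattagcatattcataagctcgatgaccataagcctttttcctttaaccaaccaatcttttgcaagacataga
The second Rxra window held TGACCT at 87 bases and AGGTCA at 48 bases before the start, and the first held neither. Of the Pparg windows, the first held AGGTCA at 28 bases and the second at 9 bases before the start. The third held none. None of these windows held TTCNNNNGAA on either strand, a letter pattern of the kind that STAT6, the IL-4-activated factor, binds. Among 32841 windows of the same length at all annotated starts, 14% held AGGTCA and 5.85% held TTCNNNNGAA. Of 46 members 42 matched the promoter table, with 63 windows, of which 11 (17.5%, in 10 genes) held AGGTCA and 5 (7.94%, in 5 genes) held TTCNNNNGAA. In the windows shown no marked stretches overlap. Which start the measured transcripts used was not determined.

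Hdac3 itself, the targeted gene, was lower in KO than in control cells in vehicle (log2 fold change -1.41, SE 0.218, limma adjusted p = 0.00293) and under IL-4 (-1.52, SE 0.233, adjusted p = 0.00401). Whether its probe lies inside the deleted exons was not established here. A stricter detection filter left Hdac3 out, so it could have passed through the control groups, where it is brighter. Of non-control spots, 56.2% to 83.2% were well above background, with the lowest shares on control vehicle array 4 (56.2%) and KO IL-4 array 15 (61.1%). All 8 macrophage markers were well above background on all 13 arrays. Their summed log2 level ran from 9.10 to 9.22 in control vehicle, 9.06 to 9.13 in KO vehicle, 8.89 to 8.98 in control IL-4 and 9.03 to 9.14 in KO IL-4 arrays. Some markers of other cells were detected on all 13 arrays as well, among them all 5 fibroblast, 3 of 4 B cell and 3 of 6 measured neutrophil markers, so that detection on this platform does not by itself show expression by macrophages. Of 5 dendritic cell markers, Flt3 and Zbtb46 were well above background on all 13 arrays, Xcr1 on 10, and Cd209a and Ccr7 on none. The neutrophil gene Elane was well above background on no array either. The summed level of the macrophage list overlapped between genotypes in vehicle and did not under IL-4. Among its genes Itgam was higher in KO cells (2.70 to 3.19 against 1.30 to 1.73 in vehicle, 3.04 to 3.62 against 1.23 to 1.65 with IL-4) and Fcgr1 lower (4.72 to 5.35 against 5.56 to 5.76, and 3.95 to 4.36 against 4.76 to 5.01). The B cell gene Cd79b was lower in KO cells as well (-2.36 to -2.07 against -1.68 to -1.38, and -2.56 to -1.84 against -1.53 to -1.05), while the sum of its list overlapped. The eosinophil list of 3 genes had the widest separation of the summed levels, at -0.77 to -0.20 in control vehicle and -0.62 to 0.03 in control IL-4, against 3.00 to 4.18 in KO vehicle and 2.76 to 4.15 in KO IL-4 arrays. That difference lay in Siglecf, a receptor of eosinophils and of some macrophages (2.92 to 4.15 in KO vehicle, -2.17 to -1.28 in control vehicle). The eosinophil granule genes Prg2 (-2.23 to -1.42 against -1.98 to -1.52) and Epx (-4.17 to -3.00 against -4.32 to -3.02) overlapped between the same groups. In bulk RNA, fewer cells of a type and less RNA per cell cannot be told apart. The part of these markers in the receptor results was not tested.

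Detection was scored with the scanner software's own flag, which marks a spot as well above background. A gene was tested where a probe carried this flag on every array of at least 1 group, and 30 of 46 members passed. Of all 28307 gene names 20906 passed, and 16410 did when the flag was required on all 13 arrays. The tested probe was well above background on all 13 arrays for 24 members. It was so on 12 arrays for Thrb, a thyroid hormone receptor, and for Nr1d1, the clock repressor REV-ERBα. The number was 11 for Nr4a1 and Nr6a1, 10 for Ppard, a fatty acid receptor, and 9 for Nr1i3, the xenobiotic receptor CAR. A member that passes only through the groups in which it is bright is favoured to differ, and these 6 could have passed in that way. The filter left out 10 members that were detected on some arrays without filling a group. They were Rara (2 arrays), Ppara (3), Hnf4a (6), Hnf4g (4), Rxrg (5), Esr2 (2), Esrrb (5), Nr3c2 (1), Pgr (1) and Nr4a3 (2). The other 6 were well above background on no array: Nr1h4 (the bile acid receptor FXR), Vdr (the vitamin D receptor), Nr1i2 (the xenobiotic receptor PXR), Nr2e3, Nr2f1 and Nr0b1. Among hormone receptors of the steroid branch, the tested probes of the glucocorticoid receptor Nr3c1 and the oestrogen receptor Esr1 were detected throughout. The further Nr3c1 probes were also detected on all 13 arrays, but a further Esr1 probe was detected on none. The mineralocorticoid receptor Nr3c2 and the progesterone receptor Pgr were each detected on 1 control vehicle array only. For 1 probe each of Esr1, Esr2, Ppara, Pparg and Rarb the array carries 10 spots, and a probe counts as detected where any of its spots does.

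**Figure D1:**
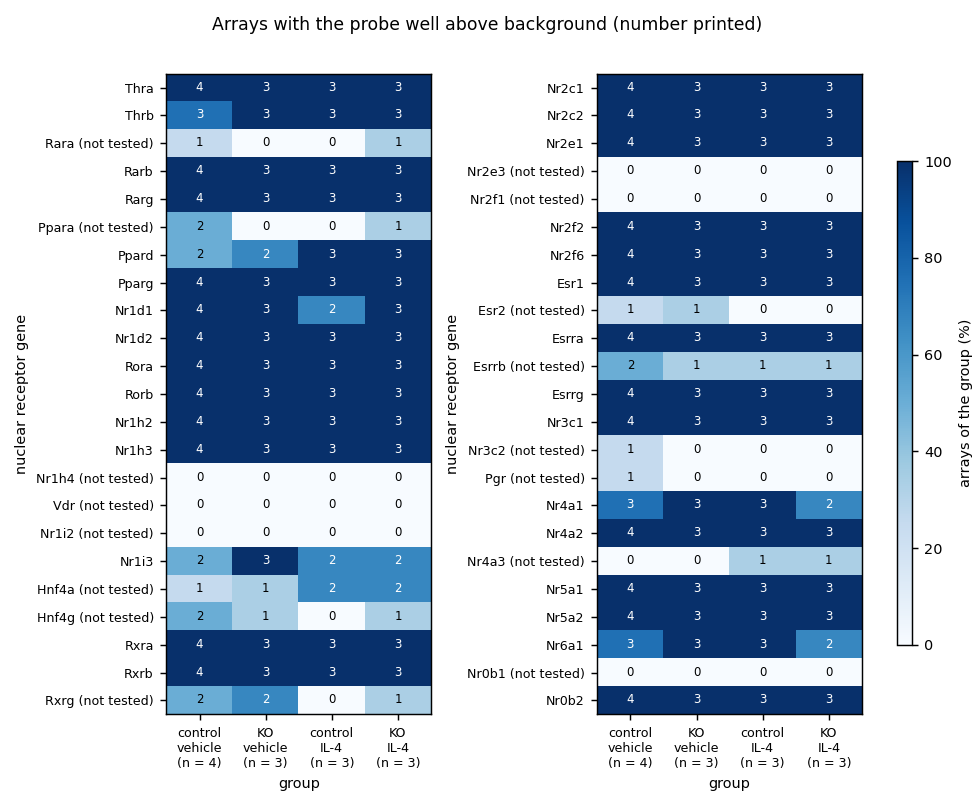
Number of arrays in each group on which the probe of each of the 46 receptor genes was well above background (columns are the 4 groups, shading is the percent of the group's arrays). For genes marked as not tested, the probe detected on most arrays is shown. Pparg, Rxra and 22 other genes fill every group, while Vdr, Nr1h4, Nr1i2, Nr2e3, Nr2f1 and Nr0b1 are at 0 throughout.

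Levels are given as log2 of the processed signal minus the array's 75th percentile of that signal, so that 0 is the level of the upper quartile of probes. Levels of different genes come from different probes and are not compared. Of the 30 tested members, 1 was called higher (Rxra) and 1 lower (Pparg) with HDAC3 loss in vehicle at an adjusted p under 0.05 in limma. That is 6.67% of them, against 4.67% of all 20906 genes tested (2.42% higher and 2.25% lower). With HDAC3 loss under IL-4 only Rxra was called, higher (3.33%, against 3.65% of all genes, 2.05% higher and 1.6% lower). IL-4 in control cells raised only Pparg (3.33%, against 5.64% of all genes, 2.76% higher and 2.87% lower), and IL-4 in KO cells raised only Pparg (3.33%, against 2.17%, 1.16% higher and 1.01% lower). The members were thus called at about the rate of all genes. The groups did not overlap for 4 members (13.3%, against 16.9% of all genes) with HDAC3 loss in vehicle and for 4 (13.3%, against 17.9%) under IL-4. They did not overlap for 4 (13.3%, against 16.7%) with IL-4 in control cells and for 5 (16.7%, against 18.3%) with IL-4 in KO cells. The median log2 fold change over the 30 members was 0.037, 0.078, -0.047 and -0.041 in these 4 comparisons, and over all genes 0.025, -0.020, 0.010 and -0.044. Median sizes without sign were 0.099, 0.168, 0.191 and 0.180 for members and 0.138, 0.178, 0.155 and 0.169 for all genes.

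Pparg encodes the fatty acid-activated receptor PPARγ, and its probe (chr6:115440213-115440272, mm9) was well above background on all arrays. In control vehicle cells its log2 level was 2.54, 2.65, 2.76 and 2.71 (mean 2.66, SD 0.0951, n = 4). In KO vehicle cells it was 1.98, 2.0 and 1.99 (mean 1.99, SD 0.0113, n = 3). Every KO vehicle array lay below every control vehicle array, and the 3 KO arrays were nearly equal. The difference was -0.67 on the log2 scale (SE 0.142, 95% interval -0.99 to -0.36, adjusted p = 0.0186 in limma), a 1.6-fold lower signal. Within slides 1, 2 and 3 it was -0.56, -0.65 and -0.77. Under IL-4 the level was 3.84, 3.61 and 3.67 in control cells (mean 3.71, SD 0.120, n = 3). In KO IL-4 cells it was 2.96, 3.65 and 3.17 (mean 3.26, SD 0.352, n = 3). Here the genotypes overlapped, since KO array 14 lay above control array 10. The difference of -0.45 (SE 0.152, 95% interval -0.78 to -0.12) did not pass (adjusted p = 0.165), and within slides 1 and 2 it was -0.88 and 0.04. IL-4 raised Pparg in both genotypes without overlap, by 1.04 in control (SE 0.142, adjusted p = 0.00087, a 2.06-fold rise) and by 1.27 in KO cells (SE 0.152, adjusted p = 0.000993, a 2.41-fold rise). Within slides the rise was 1.31, 0.96 and 0.96 in control (slides 1, 2 and 4) and 0.98, 1.65 and 1.18 in KO cells (slides 1, 2 and 3). The rises did not differ detectably between genotypes (interaction 0.22, SE 0.208, 95% interval -0.23 to 0.68, adjusted p = 1). All KO IL-4 arrays (2.96 or higher) lay above all control vehicle arrays (2.76 or lower). The call in vehicle did not survive with slide as a fixed block (adjusted p = 0.061), with median scaling (-0.69, adjusted p = 0.106) or with normexp background correction (-0.10, adjusted p = 0.844). It was kept under normexp with outlying local backgrounds replaced, a setting chosen after seeing the data. The call was also lost without the 2 arrays of lowest detection (-0.66, adjusted p = 0.0787) and without any 1 of 5 arrays. The adjusted p was 0.058 without control vehicle 3, 0.0558 without control vehicle 4, and 0.0867, 0.079 and 0.0587 without KO vehicle 5, 6 and 7. Without KO IL-4 array 14 the difference under IL-4 was -0.64 and passed (adjusted p = 0.0128).

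Rxra encodes RXRα, the common dimer partner, and rose with HDAC3 loss in both treatments. Its probe lies at chr2:27618411-27618470 (mm9). The log2 level was 3.19, 3.10, 3.16 and 3.16 in control vehicle cells (mean 3.15, SD 0.0371, n = 4). In KO vehicle cells it was 3.62, 3.85 and 3.65 (mean 3.71, SD 0.127, n = 3), so that all KO arrays lay above all control arrays. The difference was 0.55 (SE 0.133, 95% interval 0.26 to 0.84, adjusted p = 0.0369), or 1.47-fold. Under IL-4 the level was 3.30, 3.01 and 3.06 in control cells (mean 3.12, SD 0.155, n = 3). It was 3.52, 4.10 and 3.74 in KO cells (mean 3.79, SD 0.293, n = 3), again with no overlap. The difference was 0.67 (SE 0.142, 95% interval 0.36 to 0.98, adjusted p = 0.0233), or 1.59-fold. IL-4 itself moved Rxra by -0.03 in control (95% interval -0.32 to 0.26, adjusted p = 0.96) and by 0.08 in KO cells (95% interval -0.23 to 0.39, adjusted p = 0.866). The genotype difference did not differ detectably between treatments (interaction 0.11, SE 0.195, 95% interval -0.31 to 0.54). Within slides it was 0.43, 0.75 and 0.49 in vehicle (slides 1, 2 and 3) and 0.22 and 1.1 under IL-4 (slides 1 and 2). With slide as a fixed block neither call was kept (adjusted p = 0.107 in vehicle and 0.0865 under IL-4). Neither was kept with median scaling (0.53, adjusted p = 0.25, and 0.70, adjusted p = 0.125) or normexp (1.18, adjusted p = 0.268, and 0.58, adjusted p = 1). Both were kept under normexp with outlying local backgrounds replaced. In vehicle the call was lost without any 1 of 9 arrays, which were all 4 control vehicle and all 3 KO vehicle arrays, control IL-4 array 12 and KO IL-4 array 15. Without these the adjusted p ran from 0.0548 (KO IL-4 15) to 0.187 (KO vehicle 6). Under IL-4 it was lost without control IL-4 array 10 (0.0985) or 12 (0.0957) and without KO IL-4 array 14 (0.0576) or 15 (0.0602). The direction was kept in each of these fits. A further Rxra probe was too dim to be tested, so the result rests on 1 probe.

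**Figure D2:**
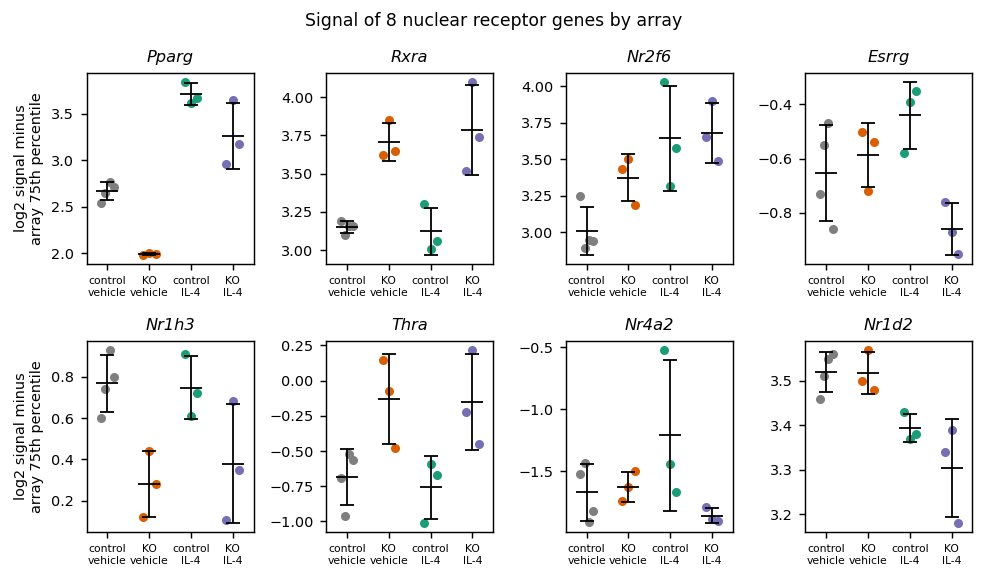
Log2 level (signal minus the array's 75th percentile) of 8 receptor genes on each array, by group, with the mean and SD as bars; each panel has its own scale. Pparg rises with IL-4 in both genotypes and is lowest in KO vehicle cells (1.98 to 2.0), and Rxra is higher in KO than in control cells in both treatments. The other 6 genes have the smallest unadjusted p-values among those that were not called.

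The oxysterol receptors LXRα (Nr1h3) and LXRβ (Nr1h2), which switch on cholesterol efflux genes, were both detected on all arrays. Nr1h3 was at 0.60, 0.74, 0.93 and 0.80 in control vehicle and at 0.12, 0.44 and 0.28 in KO vehicle cells. All KO arrays were lower, but the difference of -0.49 (SE 0.144, 95% interval -0.81 to -0.17) did not pass (adjusted p = 0.0937). It passed without KO IL-4 array 14 (adjusted p = 0.0432). Under IL-4 Nr1h3 was at 0.91, 0.61 and 0.72 in control and at 0.11, 0.68 and 0.35 in KO cells, which overlap (difference -0.37, SE 0.154, adjusted p = 0.287). IL-4 moved it by -0.02 in control and 0.10 in KO cells (adjusted p = 0.98 and 0.838). Nr1h2 had group means of -1.19 (SD 0.0986, n = 4) in control vehicle, -1.38 in KO vehicle, -1.21 in control IL-4 and -1.06 in KO IL-4 cells, and passed in no comparison.

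Among the thyroid hormone receptors, Thra was higher on all KO than on all control arrays in both treatments without passing. It was at -0.69, -0.96, -0.52 and -0.56 in control vehicle and at 0.15, -0.07 and -0.48 in KO vehicle cells (difference 0.55, SE 0.195, adjusted p = 0.188). Under IL-4 it was at -1.01, -0.59 and -0.67 in control and at -0.22, 0.22 and -0.45 in KO cells (difference 0.60, SE 0.209, adjusted p = 0.178). A further Thra probe gave differences of 0.20 and 0.14, in the same direction and smaller. Thrb means lay between -3.19 and -2.75 in the 4 groups. The retinoic acid receptors Rarb (group means -1.62 to -1.52) and Rarg (-2.05 to -1.73) passed in no comparison, and probes of Rarg differed in sign under IL-4. Its brightest probe gave -0.32 for KO against control, and others gave 0.35 and 1.27. The probe that gave 1.27 was well above background on all 3 KO IL-4 arrays and on 0 control IL-4 arrays. It passed the filter only through KO IL-4, where it is bright, so its positive difference was favoured. In some comparisons probes of Thra, Nr1d1, Rora, Rorb, Nr2c1, Nr2c2, Nr2f2, Esrra, Nr3c1 and Nr5a1 also differed in sign. None of these probes was called. Ppard, the widely expressed PPAR, had means of -2.69 in control vehicle, -2.67 in KO vehicle, -2.24 in control IL-4 and -2.06 in KO IL-4 cells. Its IL-4 differences of 0.45 and 0.60 were within wide errors (SE 0.361 and 0.386).

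Receptors of the clock, the REV-ERB repressors and the ROR activators that compete for their sites, were not called. Nr1d2, encoding REV-ERBβ, varied little, with 3.46, 3.51, 3.55 and 3.56 in control vehicle and 3.50, 3.57 and 3.48 in KO vehicle cells. With IL-4 it was at 3.43, 3.37 and 3.38 in control and at 3.34, 3.39 and 3.18 in KO cells. In both genotypes all IL-4 arrays lay below all vehicle arrays, by -0.13 in control (SE 0.0805, adjusted p = 0.556) and -0.21 in KO cells (SE 0.0861, adjusted p = 0.326). Nr1d1 means ran from -3.00 to -2.34. Its KO minus control differences were 0.43 in vehicle (SE 0.377) and 0.48 under IL-4 (SE 0.403), and a further probe gave 0.72 and 0.46, none of which passed. Rora means were -1.70 in control vehicle, -1.74 in KO vehicle, -2.04 in control IL-4 and -1.61 in KO IL-4 cells. For KO against control under IL-4 this Rora probe gave 0.44 and a further probe -0.14. Rorb means lay between -1.19 and -0.93. Nr1i3 had means of -3.98 to -3.55, and was detected on 9 arrays.

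Of the receptors related to RXR, Rxrb did not follow Rxra past the threshold. Its means were -0.45 in control vehicle, -0.47 in KO vehicle, -0.49 in control IL-4 and -0.27 in KO IL-4 cells. Nr2f6, an orphan receptor also named EAR2, had the smallest unadjusted p among members that were not called. It was at 3.25, 2.89, 2.95 and 2.94 in control vehicle and at 4.03, 3.32 and 3.58 in control IL-4 cells. All IL-4 arrays were higher, by 0.64 (SE 0.171, 95% interval 0.26 to 1.01, adjusted p = 0.0546). The difference passed without control IL-4 array 10 (adjusted p = 0.0273, difference 0.80) or KO IL-4 array 14 (adjusted p = 0.047). In KO cells Nr2f6 was at 3.43, 3.5 and 3.19 in vehicle and at 3.65, 3.90 and 3.49 with IL-4, which overlap (difference 0.31, SE 0.183, adjusted p = 0.555). The responses of the genotypes did not differ detectably (interaction -0.33, SE 0.25). The testicular receptors Nr2c1 (means -0.50 to -0.19) and Nr2c2 (0.13 to 0.37), and Nr2e1 (-1.40 to -1.15) and Nr2f2 (-1.72 to -1.38), passed in no comparison.

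In the steroid receptor branch the oestrogen-related receptor γ gene Esrrg was lower on all KO than on all control arrays under IL-4. It was at -0.58, -0.39 and -0.35 in control IL-4 and at -0.76, -0.87 and -0.95 in KO IL-4 cells (difference -0.42, SE 0.123, adjusted p = 0.104). In vehicle the genotypes overlapped, with -0.73, -0.55, -0.47 and -0.86 in control and -0.50, -0.72 and -0.54 in KO cells. For the interaction Esrrg was the only tested member with an unadjusted limma p under 0.05, at a value of -0.49 (SE 0.168), and it did not pass (adjusted p = 1 in limma). A further Esrrg probe gave -0.28 for the difference under IL-4. Esrra, which promotes mitochondrial genes, had means of 1.35, 1.27, 1.43 and 1.44 in the order control vehicle, KO vehicle, control IL-4 and KO IL-4. Esr1 had -0.42, -0.51, -0.65 and -0.63 in that order. Nr3c1, the glucocorticoid receptor, had 3.12 (SD 0.0735, n = 4), 3.09 (SD 0.0314, n = 3), 2.94 (SD 0.118, n = 3) and 3.04 (SD 0.134, n = 3). Its 3 control IL-4 arrays (2.80 to 3.01) lay below the 4 control vehicle arrays (3.02 to 3.19), by -0.18 (SE 0.0936, adjusted p = 0.431).

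The immediate-early receptors of the NR4A group, which are induced by many stimuli, were dim. Nr4a2 was at -0.52, -1.44 and -1.67 in control IL-4 and at -1.79, -1.88 and -1.90 in KO IL-4 cells. The KO arrays were lower, and control IL-4 array 9 stood well above the other two (difference -0.65, SE 0.245, adjusted p = 0.225). In vehicle it was at -1.52, -1.43, -1.91 and -1.82 in control and at -1.74, -1.63 and -1.50 in KO cells. Nr4a1 means were -2.52 and -2.41 in vehicle and -3.01 and -2.88 with IL-4, for control and KO cells respectively. Its IL-4 difference was -0.48 in both genotypes and did not pass (SE 0.253 and 0.27). Nr5a1 (means 0.36 to 0.60) and Nr5a2 (-1.03 to -0.66), known as steroidogenic and liver factors, the germ cell factor Nr6a1 (-2.77 to -2.39) and the corepressing receptor SHP, Nr0b2 (-1.41 to -0.93), passed in no comparison. Across the 30 members the fitted difference ran from -0.67 to 0.55 for HDAC3 loss in vehicle and from -0.65 to 0.67 under IL-4. It ran from -0.48 to 1.04 for IL-4 in control cells and from -0.48 to 1.27 for IL-4 in KO cells. For the interaction no member was called in limma and 1 had an unadjusted p under 0.05, where 1 of all genes (0.00478%) was called and 811 (3.88%) had an unadjusted p under 0.05.

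**Figure D3:**
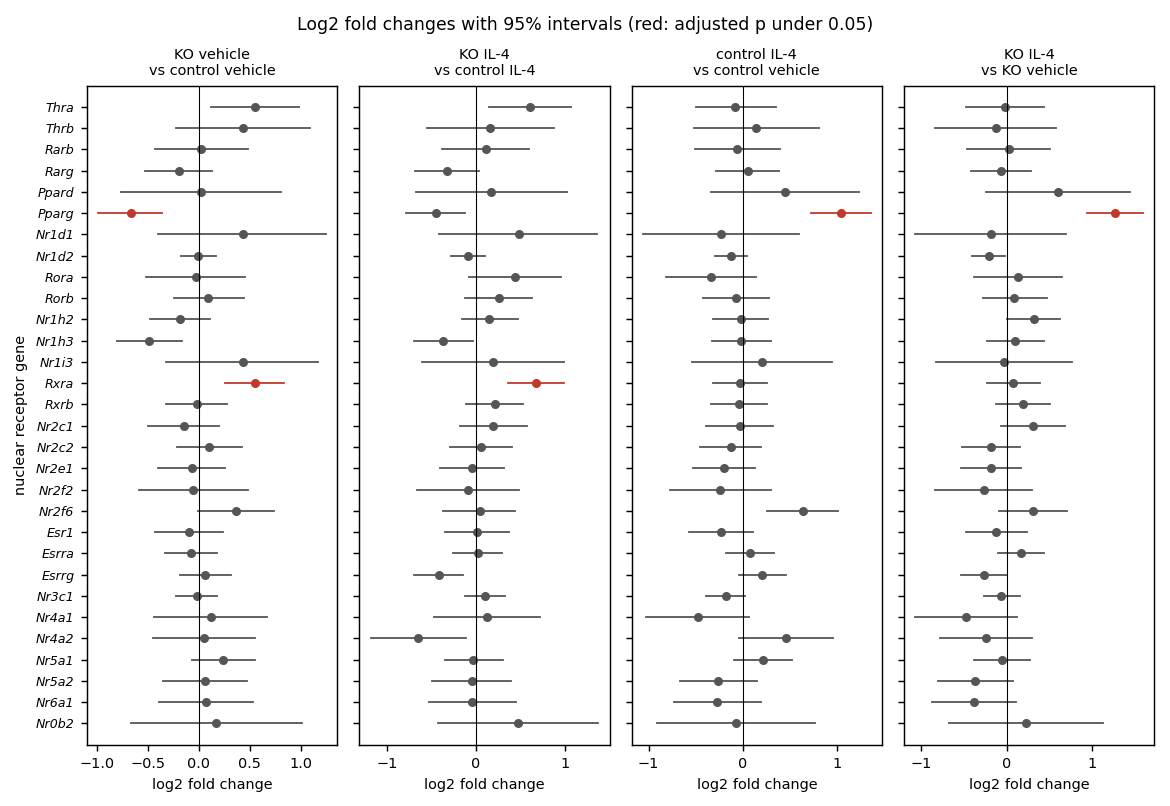
Log2 fold changes (points) with 95% intervals (lines) of the 30 tested receptor genes in the 4 comparisons, with adjusted p under 0.05 in red. Pparg lies at -0.67 for KO against control in vehicle and at 1.04 and 1.27 for IL-4 in control and KO cells, and Rxra at 0.55 and 0.67 for KO against control. The wider intervals belong mainly to dim genes such as Nr1d1 and Ppard.

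The partners of the receptors were read from lists of cofactors, target genes and ligand enzymes. Of all genes tested, 4.67% were called with HDAC3 loss in vehicle and 3.65% with HDAC3 loss under IL-4. For IL-4 in control cells the share was 5.64%, and for IL-4 in KO cells 2.17%. The median log2 fold change over all genes was 0.025, -0.020, 0.010 and -0.044 in these comparisons. Of 10 corepressor genes 9 were tested. Hdac3 was called lower and Tbl1xr1, a subunit that exchanges corepressors for coactivators, higher in KO cells in both treatments. Tbl1xr1 was at 2.61, 2.68, 2.65 and 2.67 in control vehicle and at 3.34, 3.15 and 3.13 in KO vehicle cells (difference 0.55, SE 0.126, adjusted p = 0.0283). With IL-4 it was at 1.78, 2.20 and 2.32 in control and 3.11, 2.93 and 2.88 in KO cells (difference 0.87, SE 0.135, adjusted p = 0.0041). IL-4 lowered it in control cells by 0.55 (log2 fold change -0.55, SE 0.126, adjusted p = 0.024). The vehicle call was lost without any of the 7 vehicle arrays (adjusted p from 0.0562 to 0.161), and the IL-4 call without any of the 4 control vehicle arrays or control IL-4 array 9 (0.052 to 0.0738). With slide as a fixed block these values were 0.60 (adjusted p = 0.0542) and -0.58 (0.0525). The scaffold gene Ncor1, encoding NCoR, was not called and differed by 0.02 between genotypes in vehicle (adjusted p = 0.995). The list's median log2 fold change was 0.024 between genotypes in vehicle and 0.051 between genotypes with IL-4. All 13 coactivator genes were tested and none was called in the 4 comparisons (HDAC3 loss in vehicle and with IL-4, then IL-4 in control and KO cells). In that order 2, 0, 3 and 1 had an unadjusted limma p under 0.05, against 13.6%, 14.9%, 14.7% and 12.4% of all genes. The list medians were -0.099, -0.122, -0.057 and -0.049.

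LXR target genes were called between genotypes, although neither LXR gene was. Of 12 tested, 5 were higher and none lower with HDAC3 loss, both in vehicle (median 0.177, all genes 0.025) and under IL-4 (0.492, all genes -0.020). Of all genes, 2.42% were called higher in vehicle and 2.05% under IL-4. The 5 were Apoc1, Apoc2, Apoe, Abca1 and Scd2. The vehicle count was 3 without KO vehicle array 6, under median scaling and under normexp. Under IL-4 the higher count ran from 1 to 7 over the alternative settings. Apoc1, an apolipoprotein gene, was at -1.38, -1.05, -1.31 and -1.49 in control vehicle and at 0.80, 1.18 and 1.19 in KO vehicle cells. With IL-4 it was at -2.18, -1.44 and -1.67 in control and -0.12, 0.61 and 0.22 in KO cells. No control array reached any KO array, and the differences were 2.36 (SE 0.208, adjusted p = 0.000113) and 2.0 (SE 0.222, adjusted p = 0.000576). Its neighbour in the same gene cluster, Apoc2, differed by 2.17 (SE 0.151) and 2.30 (SE 0.161). Abca1, the cholesterol efflux pump, was at 4.30, 3.99, 4.09 and 4.17 in control vehicle and at 5.0, 4.89 and 4.58 in KO vehicle cells (difference 0.69, SE 0.126, adjusted p = 0.00849). That call was lost without KO vehicle array 5 (0.0601) or 6 (0.0543). Under IL-4 Abca1 differed by 0.86 (SE 0.135, adjusted p = 0.00433), Apoe by 0.49 (SE 0.0839) and Scd2, a fatty acid desaturase, by 1.30 (SE 0.248). Scd2 lost that call without control IL-4 array 10 (0.0599) or KO IL-4 array 14 (0.0544). Apoe under IL-4 was not called with slide as a fixed block (0.47, adjusted p = 0.0536), median scaling (0.52, adjusted p = 0.0567) or the authors' deposited values (0.22, adjusted p = 0.127). In vehicle Apoe differed by 0.39 and Scd2 by 1.69. That Apoe call was lost with slide as a fixed block (adjusted p = 0.0665), without KO vehicle array 6 (0.0869) or 7 (0.0549), under quantile normalization (0.08, adjusted p = 0.76) and with the authors' values (0.11, adjusted p = 0.49). Abcg1, the partner efflux pump, was not called between genotypes. IL-4 in control cells raised 3 of the 12 (Arl4c by 1.19, Scd2 by 1.20 and Abcg1 by 0.51) and lowered 3 (Apoc2, Mylip and Smpdl3a, at -0.64, -0.55 and -0.36), with a median of -0.183. The lower count was 0 without control IL-4 array 9 or 10, and 1 without control vehicle array 1 or 4 or control IL-4 array 12. It was also 0 under normexp, under median scaling, with only the compared groups and without the 2 arrays of lowest detection. With slide as a fixed block Apoc2 and Smpdl3a were not called (adjusted p = 0.0981 and 0.0707). Scd2 lost its IL-4 call without control IL-4 array 12 (0.0549), and Mylip without control IL-4 array 9 (0.0654) or 10 (0.0664). In KO cells IL-4 raised only Arl4c (0.88, SE 0.118, adjusted p = 0.00195; median 0.106).

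Among 9 tested PPAR target genes only Fabp4, encoding a fatty acid-binding protein, was called. The count for HDAC3 loss in vehicle was 2 without KO vehicle array 7 or control IL-4 array 9, and reached 5 with array weights or with trend and robust variance. Fabp4 was at 2.23, 1.58, 2.05 and 1.88 in control vehicle and at 3.50, 3.58 and 3.20 in KO vehicle cells. Its difference was 1.49 (SE 0.195, limma adjusted p = 0.00101), the opposite direction to Pparg in the same arrays. IL-4 raised it in control cells to 3.28, 2.73 and 3.11 (1.1, SE 0.195, adjusted p = 0.00517). In KO IL-4 cells it was at 3.52, 4.02 and 3.49, above all control IL-4 arrays. That genotype difference was not called, and 17.9% of all genes did not overlap there, in either direction. The IL-4 response of Fabp4 in KO cells was not called either. For the interaction its value was -0.86 (SE 0.285, unadjusted p = 0.0116 in limma), which did not pass (adjusted p = 1). Cd36, the scavenger receptor, differed by 0.51 between genotypes in vehicle without passing (SE 0.14, adjusted p = 0.0689). The list's medians were 0.297 for HDAC3 loss in vehicle, 0.243 under IL-4, 0.087 for IL-4 in control cells and 0.054 for IL-4 in KO cells.

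Of 14 tested clock genes, 3 were higher in KO vehicle cells and none lower (median 0.292, all genes 0.025), where 2.42% of all genes were called higher and 2.25% lower. Nfil3, a basic leucine zipper repressor that opposes DBP and is a REV-ERB target, was at 1.14, 0.75, 0.90 and 1.11 in control vehicle and 2.16, 2.43 and 2.17 in KO vehicle cells (1.28, SE 0.136, adjusted p = 0.00032). IL-4 brought it to 4.52, 4.27 and 4.18 in control cells (3.35, SE 0.136, a 10.2-fold rise) and to 4.32, 4.67 and 4.44 in KO cells (2.22, SE 0.146, 4.67-fold). Its IL-4 groups overlapped between genotypes, and the interaction was -1.13 (SE 0.199, adjusted p = 0.299). Bhlhe40, which encodes the repressor DEC1, differed by 1.84 (SE 0.31, adjusted p = 0.00508) between genotypes in vehicle, and IL-4 raised it by 3.55 in control (SE 0.31) and by 2.53 in KO cells (SE 0.331). The third gene, Dbp, was higher by 0.60 in KO vehicle cells (SE 0.125, adjusted p = 0.0175), and lost its call without KO vehicle array 5 (0.0712), 6 (0.059) or 7 (0.0731). Under IL-4 only Arntl (BMAL1) was called higher in KO cells (0.76, SE 0.175, adjusted p = 0.0352; median 0.185), and it lost the call without any 1 of 9 arrays. The arrays concerned were all 3 KO vehicle arrays, numbers 1 and 2 of control vehicle, 9 and 10 of control IL-4, and 13 and 14 of KO IL-4, with adjusted p from 0.0502 to 0.132, and with slide as a fixed block (0.123). Nfil3 and Bhlhe40 were the 2 clock genes called with IL-4 in each genotype.

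Of 7 glucocorticoid receptor targets, 1 was called higher and 1 lower with HDAC3 loss in vehicle, and 2 higher and 1 lower under IL-4. Of all genes, 4.67% were called in either direction in vehicle and 3.65% under IL-4. Tsc22d3, encoding the glucocorticoid-induced leucine zipper, was higher in KO cells by 0.52 in vehicle (SE 0.102, adjusted p = 0.013) and 0.75 under IL-4 (SE 0.109, adjusted p = 0.0029), and the vehicle call was lost without KO vehicle array 5 (0.0578) or 6 (0.0859). Ddit4, an inhibitor of mTORC1, was at 1.07, 0.65, 1.29 and 1.30 in control vehicle and 0.15, 0.19 and -0.03 in KO vehicle cells. It was lower by 0.97 in vehicle (log2 fold change -0.97, SE 0.161) and by 1.03 under IL-4 (-1.03, SE 0.172). Sgk1, a kinase gene, was higher in KO cells under IL-4 (0.54, SE 0.0996), a call lost without control IL-4 array 10 (0.0522). IL-4 in control cells raised Zfp36 by 0.34 (SE 0.0893, adjusted p = 0.0457), which was lost without any 1 of 11 arrays, all but KO vehicle 7 and KO IL-4 14 (0.0529 to 0.18), and with slide as a fixed block (0.129). The 7 genes of the list had medians of 0.049 for HDAC3 loss in vehicle, 0.256 under IL-4, 0.023 for IL-4 in control cells and 0.126 for IL-4 in KO cells.

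Of the enzymes that make or convert receptor ligands, Aldh1a2 and Ch25h were called. Aldh1a2 (RALDH2), which makes retinoic acid, was at -3.09, -2.53, -2.33 and -3.12 in control vehicle and at 0.38, -0.45 and 0.30 in control IL-4 cells. In KO cells it went from -2.17, -2.43 and -2.57 in vehicle to 0.14, 0.45 and 0.16 with IL-4. IL-4 raised it by 2.84 in control (SE 0.24, limma adjusted p = 2.9e-05) and by 2.64 in KO cells (SE 0.257, limma adjusted p = 0.000233). The genotypes were not called different. A stricter detection filter left Aldh1a2 out, so it could have passed through the IL-4 groups, where it is bright. A gene that passes in that way is favoured to differ. Ch25h, which makes the LXR ligand 25-hydroxycholesterol, was at -0.95, -0.43, -0.78 and -0.72 in control vehicle and at -2.19, -3.00 and -2.28 in KO vehicle cells (difference -1.77, SE 0.228, adjusted p = 0.000932). Under IL-4 it was at -1.42, -1.62 and -1.92 in control and -2.92, -3.19 and -2.47 in KO cells (difference -1.21, SE 0.244, adjusted p = 0.0175). KO arrays lay below control arrays in each treatment. IL-4 lowered Ch25h in control cells (-0.93, SE 0.228, adjusted p = 0.0348). The Ch25h call under IL-4 was lost without control IL-4 array 9 (0.0734) or 10 (0.0658) and KO IL-4 array 13 (0.0512) or 14 (0.0748). Its IL-4 call in control cells was lost without any 1 of 7 arrays, namely control vehicle 2, 3 and 4, all 3 control IL-4 arrays and KO IL-4 13 (0.0504 to 0.167), and with slide as a fixed block (0.0944). Of 13 enzymes 9 were tested, with medians of 0.130 and 0.021 for HDAC3 loss (vehicle, then IL-4) and of 0.226 and -0.157 for the IL-4 responses of control and KO cells. Of 8 retinoic acid and vitamin D targets 5 were tested. Only Dhrs3, a retinaldehyde reductase, was called, with IL-4 in control cells (0.39, SE 0.0823, adjusted p = 0.0149, median 0.391), and the call was lost without control IL-4 array 10 (0.0607) or 12 (0.0766), with median scaling (0.43, adjusted p = 0.0812), quantile normalization (0.31, adjusted p = 0.0518) and the authors' deposited values (0.23, adjusted p = 0.172). The vitamin D target Cyp24a1 and the vitamin D-activating enzyme Cyp27b1 did not pass the detection filter, nor did the receptor Vdr.

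**Figure D4:**
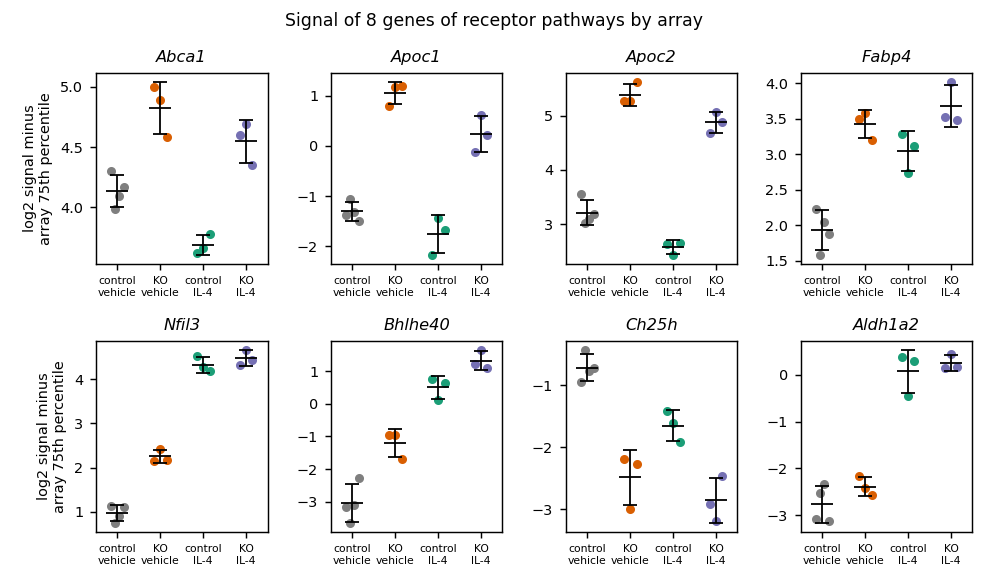
Log2 level of 8 genes from the target and enzyme lists on each array, by group, with mean and SD; each panel has its own scale, and the 8 were chosen after their values were seen. Apoc1, Apoc2 and Abca1 are higher and Ch25h lower in KO than in control cells in both treatments, and Nfil3, Bhlhe40 and Aldh1a2 rise with IL-4 in both genotypes. Fabp4 is higher in KO vehicle (3.20 to 3.58) than in control vehicle cells (1.58 to 2.23).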

How the data were processed

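RNA was amplified with the NuGEN Ovation V2 kit and labelled with Cy3, per the labels' protocols. The deposited scanner output of each array lists linear spot intensity of 1 channel, background-corrected by Agilent Feature Extraction 10.5.1.1 and placed on mm9, per the file headers. In the submitters' processing notes the software has version 9.53, and limma is named too. The authors' deposited value table of intensity (39280 rows, 75th percentile 772 in each column, correlation with the scanner values of at least 0.998) was used as an alternative. How it was made was not given in the sources.

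From the deposited intensity, log2 values minus each array's 75th percentile were computed. Control spots and outlier spots were left out. Of 41174 non-control probes, 101 had every spot flagged as an outlier on 1 or more arrays and were not tested. Spots of one probe were averaged, and a probe was kept if all arrays of 1 or more groups showed it well above background. The brightest probe stood for a gene, named through RefSeq accessions for 25097 probes. All 13 arrays entered 1 model of the 4 groups (limma 3.58.1, lmFit and eBayes, two-sided, R 4.3.3), p-values were adjusted over 20906 genes by Benjamini-Hochberg, and a call needed an adjusted p under 0.05. The script was tested on simulated data.

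Members called in any comparison are given with every array, as are the 6 uncalled members of smallest unadjusted p. From each list up to 4 called genes per comparison are named by adjusted p. Smpdl3a, Apoc2 with IL-4, Apoe and Scd2 beyond that number, Ncor1, Cd36 and Abcg1 between genotypes were named after their values were seen. The members and lists were chosen with earlier results of these data known, so their directions are not independent evidence.

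Each slide holds at most 1 array of a group, and each group had an array position of its own, so these cannot be told apart. Alternatives were other normalizations, filters, probe rules, variance models, slide as a block and leaving out each array. An alternative normexp correction that replaces outlying local backgrounds, one that leaves out 2 arrays and one that needs most spots of a probe to be detected were chosen after seeing the data.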

Additional observations from a re-analysis of the deposited data

Results flagged for a closer look

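Within the 4 control vehicle arrays, the only group of more than 3, each of the 30 tested receptor genes was checked for an array far from the others. Nr2f6 was at 3.25 on control vehicle array 1 and at 2.89 to 2.95 on the other 3, a gap of 0.856 of the whole range. Nr0b2 was at -2.27 on control vehicle array 4, the array with the smallest share of detected spots (56.2%), and at -1.06 to -1.0 on the other 3, a gap of 0.95 of the range. These are 2 of 30 groups checked, and chance flags about 1 group in 20.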

How the results depend on the processing

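In each group 3 or 4 arrays set the precision, and dim receptors are limited by signal over background. Array numbers are not shared between groups and pair no samples, so arrays were paired by slide alone, as a block. The main counts of called members were 1 higher and 1 lower for HDAC3 loss in vehicle, 1 higher and 0 lower under IL-4, and 1 higher and 0 lower for IL-4 in each genotype.

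For HDAC3 loss in vehicle, the higher count was 0 under normexp, median scaling, no filter on dim probes, slide as a fixed block and without the 2 arrays of lowest detection, and 2 with array weights. The lower count was 0 under normexp, median scaling, fixed slide block and without those 2 arrays, and 2 under quantile normalization, the authors' values, trend and robust variance and array weights (Pparg and Nr1h3). Leaving out each array gave 0 to 1 higher and 0 to 2 lower. Under IL-4 the higher count was 0 under normexp, median scaling, no filter, fixed slide block, only the compared groups and without the 2 arrays. The lower count was 1 under quantile normalization and the authors' values (Pparg) and 2 with array weights (Pparg and Esrrg). Leaving out each array gave 0 to 1 in each direction. For IL-4 in control cells the higher count was 0 under normexp and 2 (with Nr2f6) under quantile normalization, the authors' values, normexp with outlying backgrounds replaced, probes detected on all 13 arrays, a random slide block, trend and robust variance, and array weights. The lower count was 1 with array weights, and leaving out each array gave 1 to 2 higher. For IL-4 in KO cells the higher count was 0 under normexp and with only the compared groups (Pparg, adjusted p = 0.0586), and 1 on leaving out any array. The interaction stayed at 0 in all settings.

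Under normexp Tbl1xr1, Mylip, Apoc2 and Smpdl3a turned from lower to higher with IL-4 in control cells, at 0.05, 0.07, 0.04 and 0.15. That setting moved the median of all genes by -0.231 for HDAC3 loss in vehicle (to -0.206) and by -0.230 for IL-4 in control (to -0.221). On 3 arrays local backgrounds exceeded the signal at 9 to 11 spots, and the corrected values of control vehicle 1 correlated with the processed signal at 0.674. With those backgrounds replaced the correlation was at least 0.963. For HDAC3 loss in vehicle 1077 genes were then called, against 94 under normexp. The Pparg and Rxra calls were kept in that setting. The fixed slide block ended no call of the named genes other than those given with the results. The cause of the other changes was not tested.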
